A study of Mus musculus with 39 samples.

Results

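The nuclear-encoded genes of the mitochondrial respiratory chain were followed through a treatment time course of MIN6 cells, an insulin-secreting line derived from a mouse insulinoma. Members were chosen by symbol: every gene of the count table whose name begins with Ndufa, Ndufb, Ndufc, Ndufs or Ndufv (complex I), Sdha to Sdhd (complex II), Uqcr (complex III), Cox4i, Cox5, Cox6, Cox7 or Cox8 (complex IV) or Atp5 (complex V), with assembly factors named Ndufaf or Sdhaf and pseudogenes left out. This rule gave 85 of 24421 genes, of which 38 belong to complex I, 4 to complex II, 8 to complex III, 18 to complex IV and 17 to complex V. Some of these names are assigned elsewhere today: Ndufa4 is now counted as a subunit of complex IV, Atp5sl (Dmac2) as an assembly factor of complex I, and Atp5s (Dmac2l) as an accessory factor of ATP synthase. They are listed here under the complex of their symbol.

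The cells were sampled untreated at 0 h and after 1, 2, 6 and 24 h of treatment. Treatments were 0.1% DMSO as the vehicle, 5 µM SW016789 or 100 nM thapsigargin. SW016789 is a small molecule that acutely drives excess insulin secretion, and the study reports that longer exposure inhibits glucose-stimulated secretion. Thapsigargin blocks the SERCA pump and so empties the calcium store of the endoplasmic reticulum (ER). There were 3 independent experiments with 13 samples each, hence 13 groups of n = 3. All groups are the same cell line in a high-glucose medium, the start of treatment was shifted so that the samples of 1 experiment were collected at 1 time, and MIN6 is a tumour line rather than a primary β cell.

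Respiratory complexes carry electrons from NADH (complex I) and succinate (complex II) through ubiquinone, complex III and cytochrome c to oxygen at complex IV, and the proton gradient built on the way drives ATP synthase (complex V). Most subunits are encoded in the nucleus and imported, while a small set, the catalytic centre of complex IV among them, is made inside the organelle from mitochondrial DNA. In β cells this chain couples glucose metabolism to insulin release, since the rise in the ATP/ADP ratio closes potassium channels and opens the way for calcium entry.

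The libraries held between 9150443 and 47616080 counts assigned to genes (median 32153770). Reads outside annotated genes made up 6.17% to 36.6% (the intergenic share), with 16 of 39 libraries above 10%, and this share was uneven between groups. At 6 h it was 8.23%, 34% and 20.2% with thapsigargin against 7.38%, 7.55% and 6.80% with DMSO, whereas at 24 h every library was below 10%. All 12 β cell markers were at or above 1 CPM (counts per 1e+06 counts, scaled by TMM, the trimmed mean of M-values) at 0 h. Of markers of other cells, 2 of 7 for other islet cells, 2 of 16 for acinar and ductal cells, 6 of 17 for stromal, endothelial and immune cells and 1 of 10 for muscle reached that level. Some of these lists were higher in the thapsigargin libraries at 6 h, with summed levels of 17.1 to 67.7 CPM against 14.1 to 16.7 CPM with DMSO for stromal, endothelial and immune markers and of 3.06 to 67.4 CPM against 1.14 to 2.01 CPM for muscle. The summed markers of other islet cells were lower with thapsigargin, at 162.5 to 197.5 CPM against 279.9 to 307 CPM with DMSO at 6 h and at 77.8 to 83.3 CPM against 340.4 to 356.3 CPM at 24 h. The summed acinar and ductal markers of thapsigargin and DMSO overlapped at both times, and at 24 h of SW016789 they were at 150.9 to 179.5 CPM against 107.5 to 129 CPM.

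In untreated cells the respiratory chain genes were abundant. Their median level was 57.7 RPKM (reads per kilobase of exon per 1e+06 counts, the scale used here for levels compared between genes), against 2.70 RPKM over all genes tested, and 74 of the 85 were at 10 RPKM or more. Cox8a, a small structural subunit of complex IV, had the highest level at 355 ± 3.3 RPKM (SD, n = 3). It was followed by Atp5b, the catalytic β subunit of ATP synthase, at 309 ± 15, and by Atp5g3, which encodes the ring of c subunits that turns in the membrane, at 256 ± 7.4. The 3 ranges of mean ± SD did not overlap, so the order at the top was larger than the spread.

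Within complex I the highest level was that of Ndufb8, an accessory subunit, at 179 ± 12 RPKM, and in complex III that of Uqcrb, the subunit next to the ubiquinone site, at 157 ± 13. Complex II was even: Sdhc and Sdhd, the membrane anchors, were at 77.0 ± 3.3 and 65.7 ± 5.2 RPKM, and Sdha and Sdhb, the flavoprotein and the iron-sulphur subunit, at 61.3 ± 3.2 and 57.2 ± 0.24. Of the neighbours in that order, Sdhd and Sdha did not differ beyond their spread. Below 1 RPKM stood 6 genes, which were Ndufs5, Cox8c, Cox7b2, Cox8b, Cox4i2 and Ndufa4l2. Ndufs5 held at most 8 reads in a library and Cox7b2 at most 12, and these 2 did not pass the filter on low counts, which left 83 members for testing. Read pairs counted had a mapping quality of at least 10, so counts of genes with near-identical copies elsewhere are uncertain. The annotation names pseudogenes of Uqcrh, Atp5l, Ndufab1, Atp5c1 and Atp5k, and pseudogenes that do not carry the name of their gene were not looked for. Ndufs5 had no read in 36 of 39 libraries. Whether this reflects its expression or the counting was not tested.

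**Figure D1:**
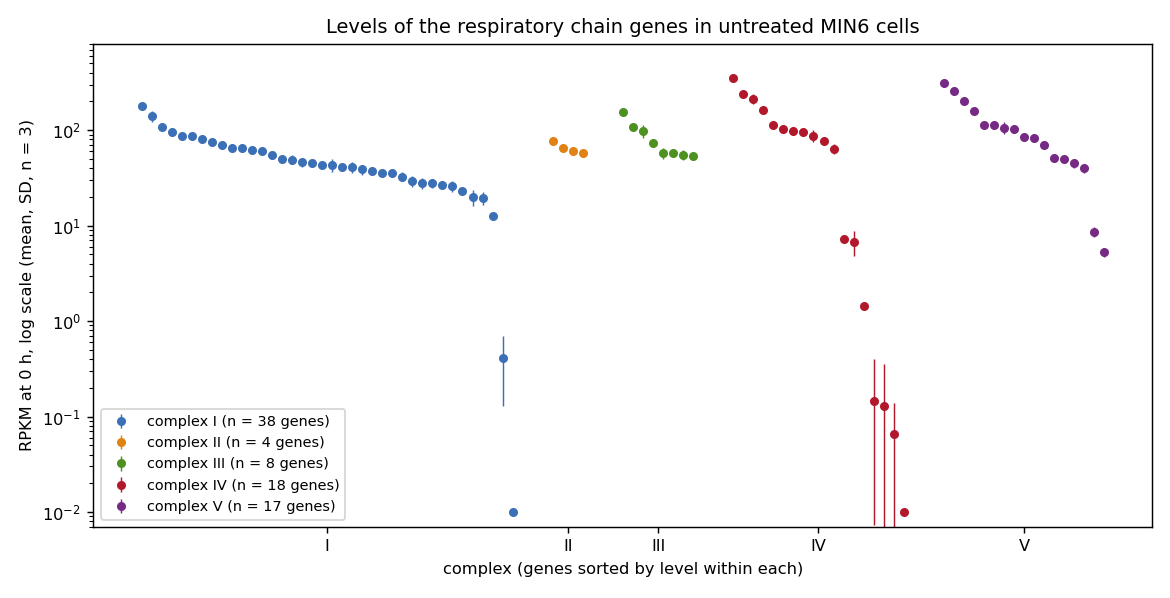
RPKM of each of the 85 genes in untreated cells (0 h, log scale, mean with SD, n = 3), sorted within each complex; genes with no read are drawn at 0.01. Nearly all genes sit between 10 and 355 RPKM, and the low tail consists of tissue-restricted isoforms of complex IV, Ndufa4l2, Ndufs5 and the accessory genes Atp5s and Atp5sl.

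The vehicle and the early times were compared to see how stable these genes were without a late response. In DMSO against the 0 h baseline, 0 of 83 members were called by edgeR at an adjusted p below 0.05 at 1, 2, 6 and 24 h, where 1, 5, 0 and 5 members were below 0.05 without adjustment and DESeq2 made 0 calls at each time. Of all 21752 genes tested, 0%, 0.00919%, 0% and 0% were called. At 24 h of DMSO the estimates were above 0 for 75 of 83 members, with a median log2 fold change of 0.13 against -0.003 over all genes. The summed level of the 85 genes was then 5769, 6926 and 5919 CPM against 5437, 5921 and 5776 CPM at 0 h, with overlap, and these DMSO libraries are the control of both treatments at 24 h. With SW016789, 0 members were called at 1 and 2 h (0.372% and 2.58% of all genes), with 0 and 6 at an unadjusted p under 0.05 and 0 and 1 by DESeq2. With thapsigargin, 0 were called at 1 and 2 h (0.046% and 1.38% of all genes), with 2 and 9 at an unadjusted p under 0.05 and 0 and 1 by DESeq2. At 2 h of thapsigargin, without DMSO 2 h replicate 1, whose intergenic share of 17.04% was the highest of the DMSO libraries, 9 members were called. That library also set the counts of 2 and 1 that appeared without it at 2 h of SW016789 and of DMSO against the baseline.

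After 6 h of thapsigargin the respiratory chain genes were lower as a group. Of 83 members tested 38 fell and 0 rose, while 8.73% of all genes fell and 8.06% rose. The fall touched every complex, with 14 of 37 tested members of complex I, 2 of 4 of complex II, 5 of 8 of complex III, 7 of 17 of complex IV and 10 of 17 of complex V. The median log2 fold change over the members was -0.37, against 0.30 over all genes tested, and 73 of 83 estimates were below 0. All genes tested had a lower level than the members (medians of 2.70 and 57.7 RPKM at 0 h). Among other genes averaging 10 CPM or more over all libraries, 24.8% of those with a summed exon length under 1000 bases fell (median -0.21). Of the longer ones 18.1% fell (median -0.03). The members at that level fell in 28 of 48 and 9 of 26 cases (58.3% and 34.6%). In a culture sampled in bulk, less RNA of these genes per cell and a smaller share of cells that express them cannot be told apart.

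The summed level of the 85 genes shows the same fall in every experiment. It was 4471, 4243 and 4708 CPM with thapsigargin for 6 h against 5623, 6064 and 5737 CPM with DMSO, which gave log2 ratios of -0.331, -0.515 and -0.285 within experiments 1, 2 and 3. The 3 thapsigargin libraries lay below all 36 other libraries of the study, of which the lowest was SW016789 1 h replicate 1 at 4833 CPM. Within the experiments 69, 76 and 73 of the 83 members were lower with thapsigargin, and 68 were lower in all 3. In experiment 1 the intergenic shares of the pair compared were close, at 8.23% and 7.38%, and the fall was present there. With the intergenic percent and the experiment number in the fit 29 members fell and 1 rose, with a median of -0.26. Without the libraries above 10% intergenic reads 34 fell and 0 rose, with 1 thapsigargin library left at 6 h, which that fit assumes to vary like the libraries of the other groups. The part of the intergenic share and of the stromal, muscle and other islet cell markers in these falls was not tested.

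**Figure D2:**
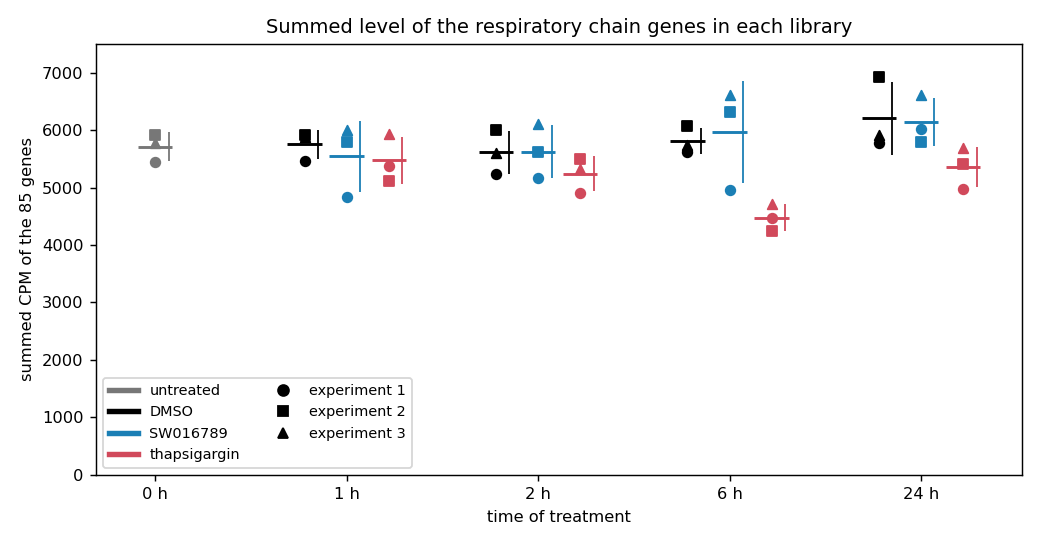
Summed CPM of the 85 genes in each of the 39 libraries by time of treatment, with the mean (horizontal line) and SD (vertical line) of each group of n = 3; marker shapes are the 3 experiments. The 3 libraries treated with thapsigargin for 6 h, at 4243 to 4708 CPM, lie below all others.

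**Figure D3:**
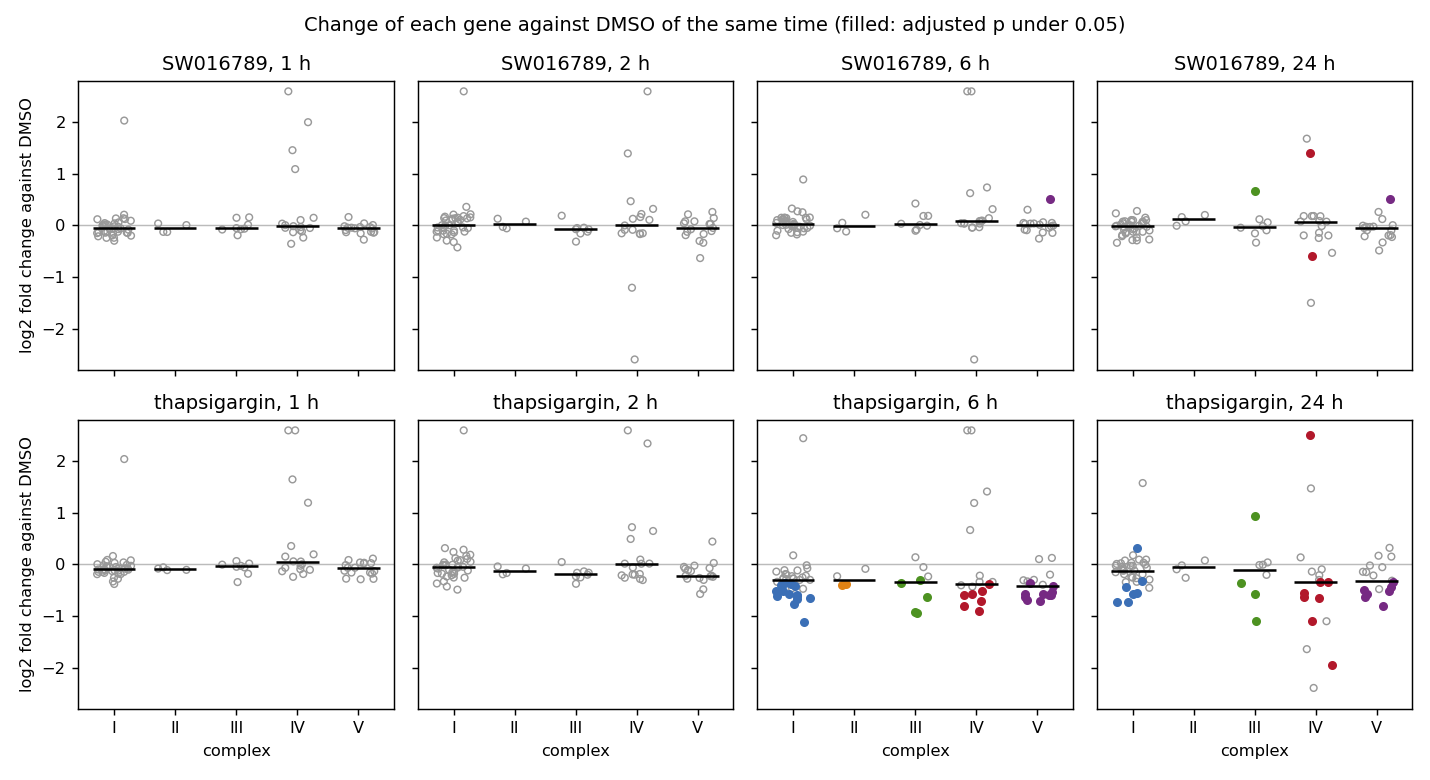
Log2 fold change of each tested gene against DMSO of the same time, by complex, for both treatments and 4 times; filled points passed an adjusted p of 0.05, bars are medians of a complex, and values beyond 2.6 are drawn at 2.6. Filled points appear mainly with thapsigargin at 6 h, where all 38 lie below 0, and at 24 h, where 23 lie below 0 and 3 above.

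At 24 h of thapsigargin the pattern was narrower. A fall was called for 23 members and a rise for 3, where 10.7% of all genes fell and 10.1% rose, and the median over the members was -0.19 against 0.07 over all genes. Among well expressed genes, those averaging 10 CPM or more over all libraries, the shares that fell lay closer together. Of members with a summed exon length of 1000 bases or more 6 of 26 fell (23.1%) against 21.5% of other genes of that kind, and of shorter members 16 of 48 (33.3%) against 18.8%. The summed level was 4982, 5415 and 5685 CPM against 5769, 6926 and 5919 CPM with DMSO, and the groups did not overlap. Log2 ratios of these sums were -0.211, -0.355 and -0.0582 within experiments 1, 2 and 3. The thapsigargin sums overlapped those of untreated cells at 0 h (5437, 5921 and 5776 CPM). Within experiments 1, 2 and 3, 59, 69 and 44 of the 83 members were lower, and 43 were lower in all 3. Of the 38 genes lower at 6 h, 19 were also lower at 24 h (50% of those at 6 h and 82.6% of the 23 at 24 h). The genes called lower at 24 h and not at 6 h were Atp5d, Cox7a1, Ndufa11 and Ndufa13. Calls lost when 1 library was left out were common, since 21 of the 38 calls at 6 h and 16 of the 26 at 24 h held without every single library in turn. The number of calls was 25 to 39 at 6 h and 16 to 25 at 24 h across those fits. The lowest counts were without replicate 2 of DMSO or of thapsigargin at 6 h (25 each) and without thapsigargin 24 h replicate 3 (16).

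Complex I, the largest complex, takes electrons from NADH. Among members listed under its symbols the largest fall was that of Ndufa4 (chr6:11900373-11907446 in mm10, minus strand), now counted in complex IV. Ndufa4 was at 12.2, 10.02 and 14.6 CPM in the 3 libraries at 6 h of thapsigargin and at 27.03, 25.9 and 27.3 CPM with DMSO. The groups were far apart, with a log2 fold change of -1.11 ± 0.15 (SE, adjusted p = 4.91e-07). At 24 h the groups overlapped: the thapsigargin libraries held 23.01, 31.2 and 29.2 CPM and the DMSO libraries 24.9, 33.3 and 23.3 CPM (0.03 ± 0.14, adjusted p = 0.96). Its thapsigargin effect moved by 1.15 ± 0.20 between 6 and 24 h (adjusted p = 0.00021), the largest move among the 38 genes that fell at 6 h.

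Ndufc1, a small accessory subunit of the membrane arm, stayed low at both times. It was at 18.4, 17.5 and 16.4 CPM at 6 h of thapsigargin against 26.9, 31.96 and 29.7 CPM with DMSO (-0.76 ± 0.16, adjusted p = 0.000501). At 24 h it was at 23.6, 22.96 and 25.8 CPM against 35.1, 40.4 and 31.5 CPM (-0.56 ± 0.15, adjusted p = 0.00516), and this later call was lost without thapsigargin replicate 3 (adjusted p = 0.0579). Ndufb8 and Ndufv3, further accessory subunits, were also lower at both times. Ndufb8 was at 74.6, 69.9 and 83.6 CPM at 6 h against 111.7, 127 and 109.9 CPM, and at 69.4, 82.8 and 81.3 CPM at 24 h against 116.6, 149 and 119.2 CPM. Its log2 fold changes were -0.61 ± 0.13 (adjusted p = 0.000927) and -0.72 ± 0.13 (adjusted p = 5.24e-05), and those of Ndufv3 were -0.57 ± 0.13 (adjusted p = 0.00217) and -0.72 ± 0.13 (adjusted p = 4.82e-05).

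At 6 h the calls in complex I did not include its catalytic core. Of the 7 nuclear core subunits, which hold the flavin and the iron-sulphur clusters, 0 passed the test at 6 h by edgeR and 3 had an unadjusted p under 0.05. Their estimates were -0.40 to -0.08 with a median of -0.28. Of 29 accessory subunits, Ndufa4 counted among them, 14 fell, with a median of -0.39. Whether these medians differ was not tested. At 24 h 6 accessory subunits fell.

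In complex II, which is also the succinate dehydrogenase of the citric acid cycle, both membrane anchors fell at 6 h. Sdhc (chr1:171129157-171150603, minus strand) was at 65.3, 64.7 and 74.5 CPM with thapsigargin and at 88.3, 92.7 and 89.5 CPM with DMSO. This was a log2 fold change of -0.40 ± 0.10 (adjusted p = 0.00334), and the call held without any 1 library. Sdhd was at 59.7, 62.9 and 63.3 CPM against 73.7, 87.04 and 80.6 CPM (-0.38 ± 0.13, adjusted p = 0.0429). For Sdhd the call was lost without any 1 of the 6 libraries, with adjusted p between 0.0549 and 0.137, although the groups did not overlap. At 24 h no member of complex II was called by edgeR, 0 had an unadjusted p under 0.05, and Sdhc was at 90.9, 92.1 and 97.6 CPM against 92.1, 104.3 and 87.8 CPM.

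Complex III, which passes electrons from ubiquinol to cytochrome c, held a fall called at both times and one of the 3 rises. Uqcrh (chr4:116066965-116075070, minus strand), the hinge protein between cytochrome c1 and cytochrome c, was at 27.9, 27.2 and 29.9 CPM at 6 h of thapsigargin against 48.7, 57.8 and 57.6 CPM with DMSO. At 24 h it was at 28.1, 29.6 and 34.2 CPM against 58.9, 72.04 and 65.8 CPM. Its log2 fold change was -0.95 ± 0.18 (adjusted p = 0.000244) at 6 h and -1.10 ± 0.18 (adjusted p = 1.07e-05) at 24 h, and both calls held without any 1 library. Uqcr11, the smallest subunit, fell by 0.93 ± 0.19 at 6 h (adjusted p = 0.00058) and by 0.57 ± 0.19 at 24 h (adjusted p = 0.0259). The call at 24 h was lost without any 1 of the thapsigargin replicates (adjusted p = 0.166, 0.0565 and 0.0816) or without DMSO replicate 2 (0.126). Uqcrb fell at 6 h, from 89.9, 87.4 and 79.7 to 56.6, 51.4 and 56.6 CPM (-0.64 ± 0.11, adjusted p = 2.9e-05), and its 24 h values of 81.8, 91.6 and 82.9 CPM overlapped the DMSO values of 103.6, 104.9 and 86.4 CPM (-0.20 ± 0.11, adjusted p = 0.21).

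Uqcrq, named subunit VII of complex III in the deposited annotation, went the other way. It was at 54.8, 54.5 and 61.3 CPM at 6 h against 45.7, 57.1 and 52.01 CPM with DMSO, and the groups overlapped. At 24 h of thapsigargin it reached 109.7, 101.6 and 120.8 CPM against 50.8, 66.8 and 54.7 CPM, a log2 fold change of 0.95 ± 0.15 (adjusted p = 6.73e-06) that held without any 1 library. The 24 h thapsigargin values of Uqcrq and of Uqcrh, both subunits of complex III, were thus on opposite sides of their DMSO values by about 1 log2 unit.

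Complex IV, cytochrome c oxidase, hands the electrons to oxygen, and its nuclear subunits surround a core made in the mitochondrion. Cox7a2, Cox6b1 and Cox7b led the fall at 6 h with log2 fold changes of -0.90 ± 0.14 (adjusted p = 5.22e-06), -0.81 ± 0.11 (adjusted p = 1.03e-06) and -0.72 ± 0.11 (adjusted p = 8.65e-06). Cox7a2 was at 41.9, 37.2 and 49.3 CPM against 78.7, 83.3 and 78.3 CPM with DMSO, and Cox6b1 at 59.8, 61.7 and 75.2 CPM against 107.4, 124.2 and 112.6 CPM, without overlap. Cox8a, the member with the highest RPKM, was at 130, 124.96 and 146 CPM at 6 h against 212, 205 and 184 CPM, and at 143, 144 and 153 CPM at 24 h against 196, 260 and 190 CPM. These were falls of 0.59 ± 0.13 and 0.55 ± 0.13 on the log2 scale (adjusted p = 0.00114 and 0.00129), with no overlap. Cox6c, another small subunit, went from 68.4, 69.9 and 80.3 CPM at 6 h (DMSO 97.3, 114.1 and 114.9 CPM) to 51.9, 61.3 and 59.6 CPM at 24 h (DMSO 117.6, 136 and 113.8 CPM). Its log2 fold change was -0.58 ± 0.14 (adjusted p = 0.00289) and then -1.09 ± 0.14 (adjusted p = 1.02e-07), but the difference between the times did not pass the test (-0.51 ± 0.20, adjusted p = 0.13).

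Several subunits of complex IV exist as a ubiquitous and a muscle form, and the called members with the largest rise and the largest fall were muscle forms. Cox6a2 (chr7:128205435-128206366, minus strand), the heart and skeletal muscle isoform of subunit VIa, was low in untreated cells at 4.89, 4.57 and 4.76 CPM. At 24 h it reached 47.4, 37.98 and 38.2 CPM with thapsigargin and 25.5, 18.3 and 13.7 CPM with SW016789, against 9.15, 7.89 and 4.62 CPM with DMSO. The 3 groups did not overlap. Log2 fold changes were 2.51 ± 0.25 with thapsigargin (adjusted p = 2.32e-10) and 1.41 ± 0.24 with SW016789 (adjusted p = 0.00016), both held without any 1 library, and the treatments differed by 1.10 ± 0.23 (adjusted p = 0.000483). At 6 h Cox6a2 was at 8.93, 8.83 and 7.84 CPM with thapsigargin, 8.12, 8.59 and 8.14 CPM with SW016789 and 7.28, 4.71 and 4.14 CPM with DMSO, and neither difference passed (0.67 ± 0.24, adjusted p = 0.052, and 0.63 ± 0.24, adjusted p = 0.12). Its ubiquitous partner Cox6a1 did not pass at 24 h of thapsigargin (74.3, 78.8 and 88.5 CPM against 72.9, 106.6 and 86.7 CPM).

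Cox7a1 (chr7:30184171-30186030, plus strand), the muscle isoform of subunit VIIa, moved in the opposite direction. It was at 0.609, 1.31 and 1.21 CPM at 24 h of thapsigargin and at 3.49, 4.44 and 4.203 CPM with DMSO, with a log2 fold change of -1.95 ± 0.45 (adjusted p = 0.000998) that held without any 1 library. The ubiquitous Cox7a2 fell as well, to 51.998, 59.3 and 59.3 CPM against 85.3, 99.5 and 83.3 CPM (-0.65 ± 0.13, adjusted p = 0.000223). The third paralogue, Cox7a2l, which takes part in joining complexes III and IV, was at 77.2, 87.5 and 86.9 CPM against 88.2, 112.1 and 90.4 CPM and did not pass (-0.21 ± 0.11, adjusted p = 0.20). The muscle marker list was near its floor in these libraries, with 1 of 10 genes at or above 1 CPM at 0 h and a summed level at 24 h of 2.29 to 7.05 CPM with thapsigargin, 1.22 to 5.67 CPM with SW016789 and 1.75 to 1.91 CPM with DMSO. Those sums are smaller than the rise of Cox6a2 itself, and their part in it was not tested.

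Other restricted isoforms were at or close to 0. Cox4i2, the lung and hypoxia form of subunit IV, had no read in any DMSO library at 6 h, and its highest values were 1.19 CPM at 6 h, in thapsigargin replicate 2, and 0.39 CPM at 24 h, whereas Cox4i1 was at 65.3 to 116.2 CPM in the DMSO and thapsigargin libraries of both times. Cox4i1 was called lower at 6 h (-0.38 ± 0.13, adjusted p = 0.0358) and 24 h (-0.35 ± 0.12, adjusted p = 0.0423), but without any 1 of the 6 libraries at 6 h (adjusted p = 0.0512 to 0.126), and without 5 of 6 at 24 h (all but DMSO replicate 1, adjusted p = 0.0598 to 0.314), the call was lost, and at 24 h its groups overlapped. Cox8b, the muscle form of subunit VIII, reached at most 0.421 CPM in the 6 and 24 h libraries, and Cox6b2, the testis form of subunit VIb, 2.17 CPM against 151 CPM for Cox6b1. Ndufa4l2, the hypoxia-induced relative of Ndufa4, was at 1.90, 2.94 and 1.65 CPM at 6 h of thapsigargin against 0.416, 0.451 and 0.311 CPM, with no overlap but without passing the test (2.45 ± 1.2, adjusted p = 0.14).

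ATP synthase, complex V, turns the proton gradient into ATP. Atp5e (chr2:174461075-174464101, minus strand), the smallest subunit of the F1 head, was at 18.6, 20.2 and 22.4 CPM at 6 h of thapsigargin against 30.2, 29.98 and 30.4 CPM, and at 18.4, 19.2 and 22.3 CPM at 24 h against 31.1, 42.2 and 31.1 CPM. Its log2 fold changes were -0.57 ± 0.17 (adjusted p = 0.0207) and -0.80 ± 0.17 (adjusted p = 0.000418). The earlier call was lost without DMSO replicate 1 (adjusted p = 0.057) or thapsigargin replicate 2 (0.0502). Atp5o, the subunit that ties F1 to the peripheral stalk, fell at 6 h, with 59.8, 52.5 and 57.04 CPM against 89.6, 96.97 and 86.4 CPM (-0.69 ± 0.12, adjusted p = 3.68e-05). At 24 h its groups overlapped at 83.3, 88.7 and 94.8 CPM against 94.6, 107.6 and 93.5 CPM (-0.15 ± 0.11, adjusted p = 0.46). Atp5k, subunit e of the membrane sector, was at 5.56, 8.83 and 9.92 CPM at 6 h against 12.7, 14.8 and 12.01 CPM (-0.71 ± 0.25, adjusted p = 0.0426), a call that was lost without DMSO replicate 1 (0.0674) or 2 (0.129) and without thapsigargin replicate 1 (0.0997) or 2 (0.0541). Atp5b, the catalytic subunit, was at 468, 439 and 520 CPM against 566, 619 and 581 CPM without passing the threshold (-0.31 ± 0.11, adjusted p = 0.051).

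The c ring of ATP synthase is encoded by 3 genes with the same mature protein, and they differed in their calls. Atp5g3, the main one, fell to 125.6, 107.2 and 128 CPM at 6 h of thapsigargin against 179, 189 and 190 CPM (-0.63 ± 0.10, adjusted p = 1.08e-05) and to 130, 127 and 156 CPM at 24 h against 176, 218 and 189 CPM (-0.50 ± 0.10, adjusted p = 0.000145). Atp5g2 was at 23.4, 22.8 and 27.04 CPM at 6 h against 29.5, 34.8 and 31.997 CPM and did not pass (-0.39 ± 0.23, adjusted p = 0.19). Atp5g1 (chr11:96072793-96075694, minus strand) was at 41.96, 44.99 and 29.04 CPM at 6 h against 45.2, 45.4 and 42.2 CPM (-0.20 ± 0.12, adjusted p = 0.21) and at 59.8, 58.7 and 63.7 CPM at 24 h against 47.7, 53.2 and 44.8 CPM, where the groups did not overlap (0.32 ± 0.12, adjusted p = 0.0504, not called). Differences between the paralogues were not tested.

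**Figure D4:**
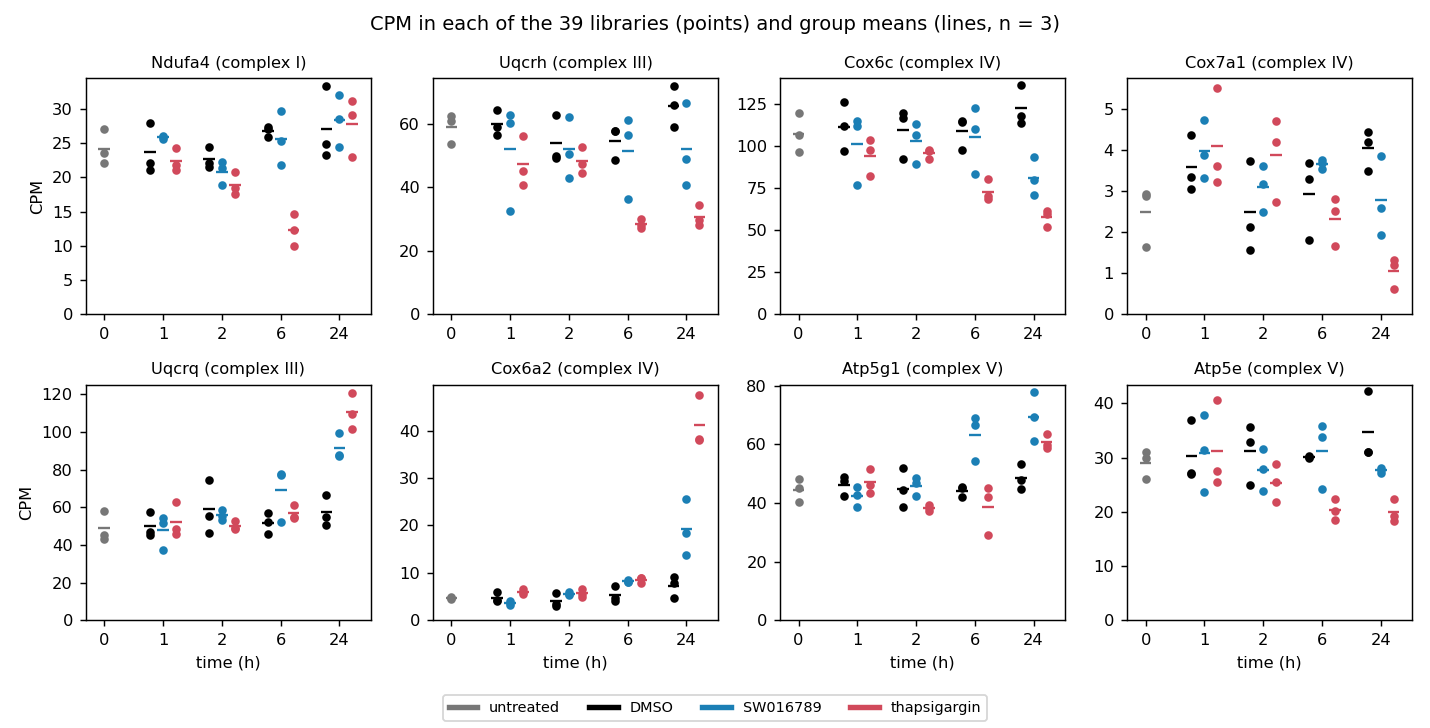
CPM of 8 genes in every library (points) with group means (lines, n = 3) by time. Ndufa4 dips with thapsigargin at 6 h and is back among the DMSO values at 24 h, Uqcrh, Cox6c and Atp5e stay low, Cox7a1 is lowest at 24 h of thapsigargin, and Uqcrq and Cox6a2 are highest there; Atp5g1 is highest with SW016789 at 6 and 24 h.

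The upstream sequence is shown for 7 members. They include leading falls (Ndufa4, Uqcrh, Cox7a2), members with a match to factors known to act on respiratory genes (Atp5e, Sdhd, Ndufb4) and the muscle paralogue Cox7a1. With thapsigargin Uqcrh, Atp5e and Cox7a2 were called lower at 6 and 24 h. Ndufa4, Sdhd and Ndufb4 were called lower at 6 h only, and Cox7a1 at 24 h only. Each line is the 250 bases before the transcription start in RefSeq (GRCm38.p6), 5′ to 3′ on the gene's strand. The regions are chr6:11907451-11907700 for Ndufa4, chr4:116075071-116075320 for Uqcrh, chr2:174464102-174464351 for Atp5e, chr9:50603850-50604099 for Sdhd, chr16:37654369-37654618 for Ndufb4 and chr9:79759854-79760103 for Cox7a2, all on the minus strand, and chr7:30183921-30184170 on the plus strand for Cox7a1. Capitals mark matches on either strand to any of 6 motifs: NRF1 (GCGCANGCG), the ETS site of GABP (CCGGAAG), YY1 (AAGATGGC), the core of the cAMP response element (TGACGT), the ATF4 composite element (TTGCATCA) and the CCAAT box (CCAAT).
Ndufa4: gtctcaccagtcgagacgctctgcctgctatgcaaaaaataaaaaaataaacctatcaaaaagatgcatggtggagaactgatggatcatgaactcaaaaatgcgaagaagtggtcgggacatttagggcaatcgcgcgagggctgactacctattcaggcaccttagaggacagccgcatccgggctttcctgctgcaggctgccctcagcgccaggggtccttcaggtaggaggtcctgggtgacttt
Uqcrh: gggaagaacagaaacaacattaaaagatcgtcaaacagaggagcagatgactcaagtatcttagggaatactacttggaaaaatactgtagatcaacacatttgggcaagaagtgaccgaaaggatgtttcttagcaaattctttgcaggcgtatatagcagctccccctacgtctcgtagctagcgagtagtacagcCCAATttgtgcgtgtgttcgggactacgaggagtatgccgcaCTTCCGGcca
Atp5e: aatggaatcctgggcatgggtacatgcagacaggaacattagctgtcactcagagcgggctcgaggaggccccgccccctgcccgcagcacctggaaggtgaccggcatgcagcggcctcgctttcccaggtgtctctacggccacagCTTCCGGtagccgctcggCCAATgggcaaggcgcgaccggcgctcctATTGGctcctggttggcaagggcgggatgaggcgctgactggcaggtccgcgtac
Sdhd: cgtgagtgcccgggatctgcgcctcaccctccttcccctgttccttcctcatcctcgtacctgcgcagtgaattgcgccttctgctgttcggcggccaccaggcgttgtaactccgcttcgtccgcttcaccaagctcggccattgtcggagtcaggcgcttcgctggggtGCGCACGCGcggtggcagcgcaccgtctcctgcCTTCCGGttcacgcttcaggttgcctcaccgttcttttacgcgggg
Ndufb4: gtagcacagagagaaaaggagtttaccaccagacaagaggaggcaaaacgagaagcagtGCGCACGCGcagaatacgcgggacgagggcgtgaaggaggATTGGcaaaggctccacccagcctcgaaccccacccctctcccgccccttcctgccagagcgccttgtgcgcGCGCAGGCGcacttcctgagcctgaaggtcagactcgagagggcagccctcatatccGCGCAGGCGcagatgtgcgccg
Cox7a2: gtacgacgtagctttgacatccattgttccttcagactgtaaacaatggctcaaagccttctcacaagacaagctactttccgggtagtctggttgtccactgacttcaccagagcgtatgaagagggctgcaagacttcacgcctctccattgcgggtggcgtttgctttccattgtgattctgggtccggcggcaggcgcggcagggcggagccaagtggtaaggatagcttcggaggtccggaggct
Cox7a1: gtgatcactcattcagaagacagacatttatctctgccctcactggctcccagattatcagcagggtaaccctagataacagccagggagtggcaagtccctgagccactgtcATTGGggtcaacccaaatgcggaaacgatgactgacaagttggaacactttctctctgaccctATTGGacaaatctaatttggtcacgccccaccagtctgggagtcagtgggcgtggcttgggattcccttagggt

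Of the 85 members 70 matched an entry of the RefSeq promoter table, by gene identifier or synonym. A gene counts as matched where any of its listed starts has the motif in this window, and 6 of the 70 have 2 starts. An NRF1 match was found upstream of 14 of the 70 (20%), against 5.86% of all 27025 genes of that table, and a GABP match upstream of 12 (17.1%, against 7.83%). The CCAAT box was found for 31 (44.3%, against 37.5%), the cAMP element for 9 (12.9%, against 7.29%), YY1 for 2 (2.86%, against 1.83%) and the ATF4 element for 0 (against 0.918%). The windows of the members were also richer in G and C, with a median of 56.2% over their 76 starts against 52.4% over all 32851 starts. Among matched members the GABP motif was upstream of 10 of the 34 that fell at 6 h of thapsigargin and 2 of the 34 tested that were not called, NRF1 of 7 and 6, the CCAAT box of 13 and 17, the cAMP element of 3 and 6 and YY1 of 1 and 1. These differences between called and other members were not tested. In the printed windows Uqcrh has a GABP match that begins 10 bases before the start, Sdhd has NRF1 and GABP matches at 79 and 46 bases, Ndufb4 has 3 NRF1 matches, and Ndufa4 and Cox7a2 have no match to the 6 motifs. A match is a run of letters and not a measured site.

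Whether the response changed between 6 and 24 h was tested directly. For thapsigargin the effect moved up for 5 members and down for 0, where 3.13% of all genes moved up and 3.15% down, and with the experiment number as a block 8 moved up and 1 down. Among them were Cox6a2 (1.84 ± 0.34, adjusted p = 0.00033), Ndufa4 (1.15 ± 0.20, adjusted p = 0.00021), Uqcrq (0.81 ± 0.22, adjusted p = 0.016) and Atp5o (0.54 ± 0.16, adjusted p = 0.04). The calls of Cox6a2 and Ndufa4 held without any 1 of the 12 libraries, and those of Uqcrq and Atp5o did not. The call of Uqcrq was lost without DMSO 24 h replicate 1 or 3, DMSO 6 h replicate 2, thapsigargin 6 h replicate 2 or thapsigargin 24 h replicate 3 (adjusted p up to 0.077). That of Atp5o was lost without any library but thapsigargin 6 h replicate 1 or 24 h replicate 1 (up to 0.216). For SW016789 0 of 83 effects changed between these times by edgeR (1.45% of all genes), 5 were below 0.05 before adjustment, and DESeq2 and the fit with the experiment number as a block called 1 each, downwards.

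Few members were called with SW016789. At 6 h 1 member rose and 0 fell, where 4.19% of all genes rose and 2.85% fell, and with the experiment number as a block 4 rose. The median log2 fold change was 0.03 against 0.12 over all genes. The called gene was Atp5g1, at 54.5, 68.9 and 66.5 CPM against 45.2, 45.4 and 42.2 CPM with DMSO (0.52 ± 0.12, adjusted p = 0.0034), without overlap. Its call was lost without SW016789 replicate 2 (adjusted p = 0.157) or 3 (0.0976) or DMSO replicate 1 (0.0631). The summed level at 6 h was 4952, 6309 and 6620 CPM, and the low value belonged to replicate 1, whose intergenic share was 26.5% against 6.87% and 6.17% in the others.

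At 24 h of SW016789 3 members rose and 1 fell, where 1.95% of all genes rose and 1.06% fell. Besides Cox6a2 these were Uqcrq, Atp5g1 and Cox6c, and the DMSO libraries are those of the thapsigargin comparison. Uqcrq was at 87.5, 99.7 and 87.6 CPM against 50.8, 66.8 and 54.7 CPM (0.67 ± 0.15, adjusted p = 0.0066), and Cox6c at 79.7, 70.5 and 93.2 CPM against 117.6, 136 and 113.8 CPM (-0.59 ± 0.14, adjusted p = 0.0089). Atp5g1 was at 69.3, 77.9 and 61.2 CPM against 47.7, 53.2 and 44.8 CPM (0.51 ± 0.12, adjusted p = 0.0081). None of the 3 overlapped with DMSO, but each call was lost without some single libraries. For Uqcrq these were DMSO replicate 1 (adjusted p = 0.129) or 3 (0.0879) or SW016789 replicate 2 (0.0545), and for Cox6c SW016789 replicate 1 (0.0664) or 2 (0.106) or DMSO replicate 2 (0.0955). For Atp5g1 they were DMSO replicate 1 (0.0889) or 3 (0.138) or SW016789 replicate 1 (0.0534) or 2 (0.101).

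The treatments were also compared with each other. At 1 and 2 h 0 members differed by edgeR (0.11% and 0.667% of all genes), with 1 and 3 at an unadjusted p under 0.05 and 0 by DESeq2 at both times. At 6 h 40 members were higher with SW016789 than with thapsigargin and 0 lower, where 7.54% of all genes were higher and 4.01% lower. Ndufa4 led at 1.06 ± 0.15 (adjusted p = 2.46e-06), with 21.8, 25.3 and 29.8 CPM for SW016789. Cox6b1 differed by 0.85 ± 0.11 (adjusted p = 8.08e-07), and both calls held without any 1 library. The count at 6 h rose to 59 without SW016789 replicate 1 and fell to 14 without SW016789 replicate 2 or 3. At 24 h 17 members were higher with SW016789 and 1 lower, where 9.78% of all genes were higher and 8.26% lower. Cox7a1 had the largest difference upwards among those called (1.42 ± 0.44, adjusted p = 0.0195), which was lost without SW016789 replicate 3 (0.153) or thapsigargin replicate 1 (0.151) or 3 (0.0604), and Cox6a2 was the gene that was lower. Each library left out lowered the count at 24 h, to between 6 and 15, with 6 reached without replicate 3 of either treatment.

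The length of the members is given beside their change. The 38 called lower at 6 h of thapsigargin had a median summed exon length of 560 bases against 853 bases for the other members tested. Across the 83 members Spearman's rho between length and log2 fold change was 0.41 at 6 h and 0.37 at 24 h, as a description, since genes of a library share its RNA and are not independent. Of the members under 1000 bases with a mean of at least 10 CPM 28 of 48 fell at 6 h (median -0.49), against 24.8% of 499 other genes of that kind (median -0.21). Of those of 1000 bases or more 9 of 26 members fell (median -0.29) against 18.1% of 9365 (median -0.03). At 24 h the medians were -0.22 for the shorter members against 0.01 for other genes of that kind, and -0.08 for the longer ones against 0.02. The part of length in the fall was not tested.

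**Figure D5:**
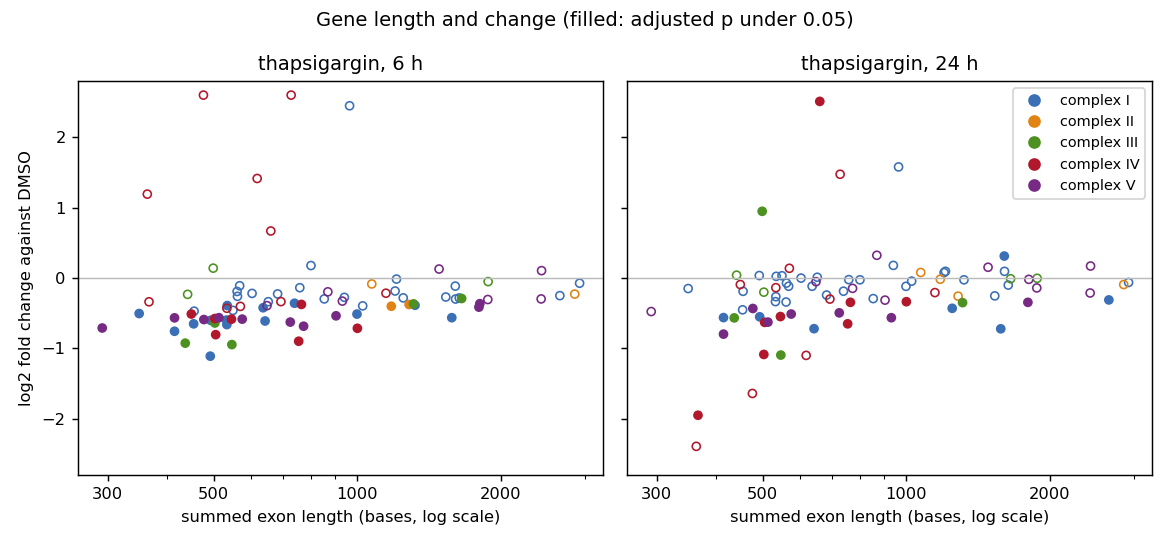
Log2 fold change against DMSO of each tested member by its summed exon length (bases, log scale) at 6 and 24 h of thapsigargin; filled points passed an adjusted p of 0.05 and values beyond 2.6 are drawn at 2.6. Filled points at 6 h are lower than 0 and mostly under 1000 bases.

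The mitochondrial genome itself was represented by read shares in the deposited mapping table, since its 13 protein-coding genes were not among the genes used here. Mitochondrial reads made up 1.88%, 1.89% and 2.32% of the reads outside intergenic regions at 24 h of thapsigargin and 2.62%, 3.06% and 3.03% with DMSO, without overlap. With 3 libraries against 3 the exact two-sided permutation p was 0.1, the smallest that this design allows, and 0.267 after adjustment over 8 comparisons. At 24 h of SW016789 the shares were 2.73%, 3.03% and 2.53%. Means at 6 h were 1.74% ± 0.34 (SD, n = 3) with thapsigargin, 2.37% ± 0.48 with SW016789 and 2.39% ± 0.033 with DMSO (exact permutation p = 0.1 and 1).

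Other mitochondrial genes did not share one direction. The shares over all genes to read these counts against are those given above for thapsigargin, 8.73% lower and 8.06% higher at 6 h and 10.7% and 10.1% at 24 h. Of 18 genes of the citric acid cycle 6 fell and 0 rose at 6 h of thapsigargin, among them Idh2 (-0.60 ± 0.10) and Pcx, the carboxylase that refills the cycle (-0.56 ± 0.10). At 24 h 6 fell and 1 rose, with Pcx at -1.02 ± 0.10, Fh1, the fumarase, at -0.98 ± 0.11 and Suclg2 at 1.05 ± 0.12. Of 12 genes of mitochondrial stress 4 rose and 0 fell at 6 h, and 5 rose and 0 fell at 24 h, while the others were not called. The chaperone Hspa9 was 1.84 ± 0.09, the transcription factor Atf5 1.47 ± 0.11 and the protease Lonp1 1.43 ± 0.08 above DMSO at 24 h of thapsigargin, and with SW016789 these 3 genes were also called higher at 6 and 24 h.

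Assembly factors, which help to build the complexes, and the proteins of the mitochondrial ribosome, which translates the genes of mitochondrial DNA, were counted as well, and no difference between these lists and the subunits was tested. Of all genes 8.06% rose and 8.73% fell at 6 h of thapsigargin, and 10.1% rose and 10.7% fell at 24 h. The counts below for complex I and IV assembly factors, and for regulators that fell at 24 h, are near these shares. Of 15 complex I assembly factors tested 2 rose and 0 fell at 6 h of thapsigargin, with Tmem126a at 0.46 ± 0.14 and Ndufaf4 at 0.44 ± 0.12. Of 23 complex IV assembly factors 2 rose and 3 fell, from Sco1, a copper carrier, at 0.72 ± 0.12 to Higd2a at -0.56 ± 0.16 and Coa3 at -0.56 ± 0.15. Of 77 mitochondrial ribosomal proteins 5 rose and 3 fell at 6 h, where both counts are no larger a share than over all genes, and 19 rose and 1 fell at 24 h. Atpif1, which encodes the inhibitor of ATP synthase run in reverse, fell at 6 h (-0.50 ± 0.14) and 24 h (-0.69 ± 0.14). Of 16 genes listed as regulators of mitochondrial genes 5 rose and 0 fell at 6 h, and 5 rose and 2 fell at 24 h. This list of regulators mixes factors of nuclear genes with Tfam, Tfb1m, Tfb2m and Polrmt, which act on mitochondrial DNA, and Sirt3, a mitochondrial deacetylase. At 24 h Pprc1, a relative of the coactivator PGC-1α, was at 0.98 ± 0.12, Tfb2m at 0.78 ± 0.11 and Tfeb at -0.74 ± 0.20. Medians of these lists at 6 h of thapsigargin lay between -0.32 (complex II assembly) and 0.30 (regulators) against 0.30 over all genes. For genes outside the members averaging 10 CPM or more, the median was -0.21 at summed exon lengths under 1000 bases and -0.03 for longer ones.

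The β cell genes fell beside the respiratory genes. Of 12 β cell markers 10 fell and 0 rose at both 6 and 24 h of thapsigargin (8.73% and 10.7% of all genes fell), with Slc2a2, the glucose transporter, at -1.57 ± 0.14 at 6 h and Ins1 at -3.03 ± 0.19 at 24 h. The summed β cell markers were 16990 to 18350 CPM at 6 h of thapsigargin against 28380 to 31430 CPM with DMSO. Their part in the change of the respiratory genes was not tested.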

How the data were processed

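RNA-seq libraries of MIN6 cells (39, in 13 groups of 3) were analysed from the raw counts of read pairs per gene that the authors deposited, made per the study's methods by strand-aware counting of STAR alignments to mm10 with a mapping quality of at least 10. The submitters' notes name STAR 2.5.2b and Subread 1.5.1, while the methods name later versions, and labels and methods differ on the library kit. Shares of reads by region were taken from the deposited mapping percent table. Not used were 78 further columns of per-sample values (normalised values).

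Counts were fitted by edgeR 4.0.16 (quasi-likelihood, TMM, filterByExpr by group, R 4.3.3) over all 39 libraries with 1 mean per group and no block, and p-values were adjusted by Benjamini-Hochberg over 21752 genes, with calls at 0.05. The common dispersion over all genes tested was 0.344 (a biological coefficient of variation of 58.6%), and at the levels of the 83 members the fitted trend gave a median of 10.3%. CPM were scaled by TMM, RPKM are CPM per kilobase of exon, and SE are standard errors of log2 fold changes. The design states independent experiments, whose number pairs the samples: deviations from group means correlated at a median r of 0.0861 for the same number (108 of 234 pairs above 0.1) and -0.0504 for others (117 of 468). Within a group no library was a duplicate of another, since counts of any replicate pair differed by a chi-square of at least 6.24 per degree of freedom. Libraries of different groups were not compared in this way.

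Alternatives were DESeq2 1.42.0, other scalings, no filter, the block, intergenic covariate and cutoffs, only the libraries compared, and each library left out. Members and lists were chosen with earlier results of these data known. Values in every sample were given for the 2 members per complex with the largest called change in either treatment against DMSO, the member per complex with the highest RPKM at 0 h and the isoform pairs, and from other lists the 3 genes with the largest called change. Results for some genes that these rules select are not reported here. Uqcr11, Atp5o, Cox6c and the other members with values were chosen after their values were seen. The script was tested on simulated data. Promoters are from RefSeq (GRCm38.p6), where entries were not found for, among others, Ndufa2, Ndufa4l2, Ndufb9, Ndufs1, Sdhc, Uqcrb, Uqcrc2, Uqcrq, Cox4i1, Cox4i2, Cox6a2, Cox6c, Cox8c and Atp5a1.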

Additional observations from a re-analysis of the deposited data

Results flagged for a closer look

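The effect of thapsigargin differed between 6 and 24 h for 5 members by the test of that difference in the edgeR fit. Among them, on the log2 scale, the effect moved up by 1.843 for Cox6a2, 1.1465 for Ndufa4, 0.80827 for Uqcrq and 0.53808 for Atp5o. Ndufa4 and Atp5o were lower at 6 h and not called at 24 h, while Cox6a2 and Uqcrq were called higher at 24 h and not called at 6 h. The intergenic share of the thapsigargin libraries was higher at 6 h (8.23%, 34% and 20.2%) than at 24 h (8.86%, 7.18% and 6.48%), and its part in these changes was not tested.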

How the results depend on the processing

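No count of members called changed its leading direction. With DESeq2 the counts were 1 at 2 h of SW016789 (0 in the reported fit), 3 at 6 h of SW016789 (1), 1 at 2 h of thapsigargin (0), 1 for the change of the SW016789 effect (0) and 9 for that of the thapsigargin effect (5). DESeq2 size factors in edgeR gave 2 at 6 h of SW016789. With the experiment number as a replicate block the counts were 4 at 6 h of SW016789, 1 for the change of its effect and 9 for that of thapsigargin, and no other count moved by over 1.5 times. The block with the intergenic percent gave 3 and 7 at 2 and 6 h of SW016789, and 2 and 8 for the changes of effect. Without libraries above 25% intergenic reads the counts were 5 at 6 h of SW016789 and 2 for the change of its effect. Without those above 10%, chosen after seeing the data, they were 2 and 4 at 2 and 6 h of SW016789, 2 for DMSO at 2 h against 0 h, and 2 and 3 for the changes of effect, and thapsigargin at 1 and 2 h, and its comparison with SW016789, could not be fitted. With only the libraries compared, the counts were 40 at 24 h of thapsigargin (26), 14 for SW016789 against thapsigargin at 6 h (40) and 11 for the change of the thapsigargin effect. The cause was not tested.

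Leaving out 1 library gave 0 to 2, 0 to 3 and 2 to 5 members at 2, 6 and 24 h of SW016789, 0 to 9, 25 to 39 and 16 to 25 at 2, 6 and 24 h of thapsigargin, and 14 to 59 and 6 to 15 for SW016789 against thapsigargin at 6 and 24 h. For DMSO at 2 h against 0 h it gave 0 to 1, and for the change of the thapsigargin effect 2 to 8.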
